A study of Homo sapiens with 2 samples.

Results

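The genes described here were 10 immediate early and AP-1 genes: FOS, FOSL1, JUN, JUNB, JUND, EGR1, IER2, IER3, ATF3 and DUSP1. They were measured in HCT116 cells, an established human colon cancer cell line. One-color Agilent arrays compared HCT116 cells transfected with a pEB vector carrying HOXA5 short RNA (HOXA5 short) with mock-transfected cells (mock). HOXA5 short is a non-coding RNA transcribed from the HOXA5 locus. Both groups were kept in selection medium with blasticidin for 2 weeks, and 400 ng of RNA per sample went into Cy3 labeling. The 2 samples share a single protocol text, which describes only the HOXA5 short vector, so the groups were taken from the sample titles. Neither the number of clones nor the culture time between the last medium change and harvest was given in the sources used here. Both arrays lay on the same slide. There was 1 array in each group, so no difference was tested and no p-value is given.

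The 10 genes were chosen by name, with their log2 differences between these 2 arrays (HOXA5 short minus mock) already known. Their values are therefore a description of this pair of arrays. All 10 genes had at least 1 probe well above background on both arrays, and they were 10 of 11994 genes compared. They were represented by 14 probes in 23 spots. Of these probes, 13 were printed in a single spot, and the DUSP1 probe was printed in 10 spots. All 14 probes passed the filter, none was saturated, and none lay in an uneven zone of the array.

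Immediate early genes are transcribed within minutes of a growth factor, serum or stress signal, before any new protein is needed. The ERK, JNK and p38 kinases carry the signal to factors already bound at their promoters, such as SRF with its ELK partners at the CArG box and CREB or ATF proteins at the cAMP response element (CRE). FOS and JUN proteins pair through leucine zippers to form AP-1, which binds sequences of the form TGANTCA and regulates proliferation, invasion and survival genes. JUN with an ATF protein prefers CRE-like sequences. In colon cancer cells the route through RAS and ERK to these genes is often active without a stimulus.

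RefSeq promoter windows (GRCh38.p14) were found for 8 of the 10 genes. The 250 bases before the start were searched on both strands for 5 motifs, and their share of all 35116 promoters of the same length is given beside each. The CRE TGACGTCA was found in DUSP1 and JUND (1.65% of all promoters). The shorter CRE core TGACGT, which overlaps the full CRE, was found in DUSP1, EGR1, FOS and JUND (7.10%). The JUN-type site TGACATCA was found in JUN and ATF3 (2.38%), and the CArG box was found at 2 positions in EGR1 (1.16%). The AP-1-type sequence TGANTCA, searched with any base at N, was found in none of the 8 genes within these windows (6.57%). A narrower form of the site was not counted separately. A match is only a description of the letters, and sites farther than 250 bases before the start were not searched for, for any motif. The 150 bases before the start are shown, 5′ to 3′ on the strand of the gene, for the 6 genes with a match, to let the different arrangements be compared. Capitals mark the matched motifs on either strand.
FOS, chr14:75278678-75278827, plus strand: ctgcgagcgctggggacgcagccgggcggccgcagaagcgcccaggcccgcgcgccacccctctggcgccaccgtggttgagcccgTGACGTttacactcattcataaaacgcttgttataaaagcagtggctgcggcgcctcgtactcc
JUN, chr1:58784048-58784197, minus strand: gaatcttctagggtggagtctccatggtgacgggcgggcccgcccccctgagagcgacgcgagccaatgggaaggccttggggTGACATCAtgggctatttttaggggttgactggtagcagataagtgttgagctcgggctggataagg
JUND, chr19:18281623-18281772, minus strand: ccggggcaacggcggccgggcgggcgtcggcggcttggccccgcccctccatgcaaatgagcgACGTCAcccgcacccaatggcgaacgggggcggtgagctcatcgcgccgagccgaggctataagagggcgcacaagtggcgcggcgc
EGR1, chr5:138465329-138465478, plus strand: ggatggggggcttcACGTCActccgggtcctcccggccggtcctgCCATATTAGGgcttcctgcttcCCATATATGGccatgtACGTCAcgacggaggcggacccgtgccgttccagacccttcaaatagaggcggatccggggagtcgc
ATF3, chr1:212565257-212565406, plus strand: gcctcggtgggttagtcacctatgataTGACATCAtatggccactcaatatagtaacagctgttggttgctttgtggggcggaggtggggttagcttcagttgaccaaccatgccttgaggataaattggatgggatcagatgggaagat
DUSP1, chr5:172771196-172771345, minus strand: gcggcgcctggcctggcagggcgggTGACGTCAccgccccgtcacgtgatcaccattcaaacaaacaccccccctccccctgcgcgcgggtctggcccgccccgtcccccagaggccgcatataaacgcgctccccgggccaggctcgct
In these sequences the FOS core CRE began 64 bases before the start, and the JUN-type site lay 67 bases before the start of JUN and 123 bases before the ATF3 start shown. The CArG boxes of EGR1 began 105 and 83 bases before the start, with core CRE sequences at 136 and 67 bases. The CRE of DUSP1 began 125 bases before the start. The CRE of JUND, at 200 bases, lies outside the stretch shown, which holds a core CRE at 87 bases. ATF3 had a further promoter window, which held none of the 5 motifs.

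The 10 genes differed little between the HOXA5 short and mock arrays. None reached 2-fold in either direction. Over all genes compared, 0.642% reached 2-fold in the higher and 0.258% in the lower direction. Scaled to the 75th percentile of each array, 8 genes were higher and 2 (JUN and IER2) were lower in HOXA5 short, where 45.5% of all genes were higher. The median log2 difference of the 10 genes was 0.16 (1.11-fold), against -0.02 over all genes, whose SD across genes was 0.29. The values ran from -0.18 for JUN to 0.30 for JUND, so every gene lay between the 20.9th and the 90.5th percentile of all genes.

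The error of 1 spot was taken from 593 probes printed repeatedly, as the SD of the log2 difference between the arrays over the spots of a probe. Spots flagged as outliers were kept in this SD, whereas gene values leave them out. It was 0.26 overall. By signal it was 0.29 from 15 to 50, 0.26 from 50 to 200 and 0.23 above 200. This error holds no spread between cultures. It was computed with the 75th percentile scaling only and serves as one fixed yardstick for every alternative below. No SD was computed with normexp or after local subtraction. With the 75th percentile scaling, JUND was the only gene of the 10 whose difference exceeded 0.26, and no gene was lower by more than 0.26. Which genes exceeded it depended on the processing. With normexp they were FOSL1 (0.30) and IER3 (0.28), with JUND at 0.25, and after local subtraction FOS alone (0.44), with JUND at 0.23. FOS (0.27) joined JUND (0.32) with cyclic loess, although FOS stayed under the 0.29 for its own brightness. With median scaling they were FOS (0.35), FOSL1 (0.30), JUND (0.40), EGR1 (0.28) and ATF3 (0.32), and with spike-in scaling all 10 genes. Median scaling raised every gene compared by 0.10 and spike-in scaling by 0.47. The shares of all genes above 0.26 under the alternatives were not computed, so these counts have nothing to be set against. For ATF3, IER3 and DUSP1, which are means over several probes or spots, the SD of a single spot overstates the measurement error. With the 75th percentile scaling, 11.8% of all genes compared were higher and 12.5% were lower by more than the SD of 0.26. Because the genes were chosen with these same differences already known, nothing is read from the comparison of these shares.

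**Figure D1:**
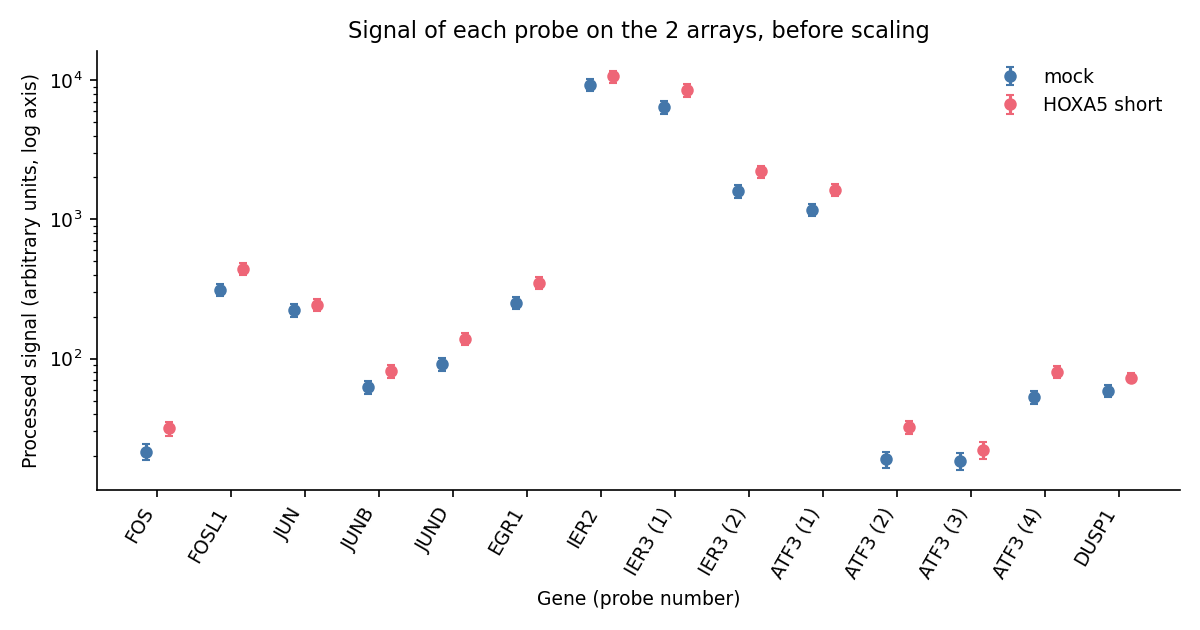
Processed signal of each of the 14 probes of the 10 genes on the mock and HOXA5 short arrays, on a log10 axis and before scaling. Bars are the scanner software's error for 1 spot and, for DUSP1, the SD over its spots not flagged as outliers. All 14 signals were higher on the HOXA5 short array, whose 75th percentile was also higher (44.0 against 35.6).

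Before scaling, all 14 probes were brighter on the HOXA5 short array. The 75th percentile of all non-control probes was 35.6 for mock and 44.0 for HOXA5 short, a log2 shift of 0.30, which the scaling takes out. Signals below are unscaled, each with the scanner software's error for that spot, and log2 differences are scaled. Signals of different probes cannot be ranked against each other.

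FOS encodes the founding partner of JUN in AP-1 and is the classic readout of serum stimulation. Its probe (NM_005252, chromosome 14) gave a signal of 21.5 ± 2.78 in mock and 31.5 ± 3.69 in HOXA5 short. The log2 difference was 0.25 (1.19-fold), below the single-spot SD of 0.29 for probes of this brightness. It was 0.04 with normexp background correction and 0.44 after subtraction of the local median, since the 28 well-measured neighbors of the spot had a median of -0.19. FOSL1, encoding the FRA1 subunit that accumulates in RAS-driven carcinoma cells, had a brighter probe (NM_005438, chromosome 11). Its signal was 312 ± 31.3 in mock and 443 ± 44.3 in HOXA5 short, with a log2 difference of 0.20 against a spot SD of 0.23. With normexp the FOSL1 difference was 0.30. Both FOS family members were thus higher by less than the error of a spot with the 75th percentile scaling, whereas FOS after local subtraction, FOSL1 with normexp, and both genes with median (0.35 and 0.30) and spike-in scaling (0.72 and 0.67) exceeded it.

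JUN encodes the AP-1 subunit that JNK phosphorylates, and was the lowest of the 10 genes. Its probe (NM_002228, chromosome 1) gave 223 ± 22.3 in mock and 243 ± 24.3 in HOXA5 short. The log2 difference was -0.18 with the 75th percentile and turned to 0.29 with scaling to the RNA spike-ins. JUNB, a JUN relative that often restrains JUN-driven growth, gave 62.4 ± 6.43 in mock and 81.1 ± 8.28 in HOXA5 short (NM_002229, chromosome 19). Its log2 difference was 0.08, inside the spot SD of 0.26, and 0.54 with spike-in scaling. JUND, the JUN family member that is present in resting cells and varies least with stimulation, was the highest of the 10 genes. Its probe (NM_001286968, chromosome 19) gave 91.2 ± 9.26 in mock and 139 ± 14.0 in HOXA5 short. The log2 difference of 0.30 (1.23-fold) exceeded the spot SD of 0.26 for that brightness, and the values with normexp (0.25) and after local subtraction (0.23) did not. The 29 well-measured neighbors of the JUND spot had a median log2 difference of 0.07. The 3 JUN genes thus spanned the whole range of the 10, with JUN at its lower and JUND at its upper end.

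**Figure D2:**
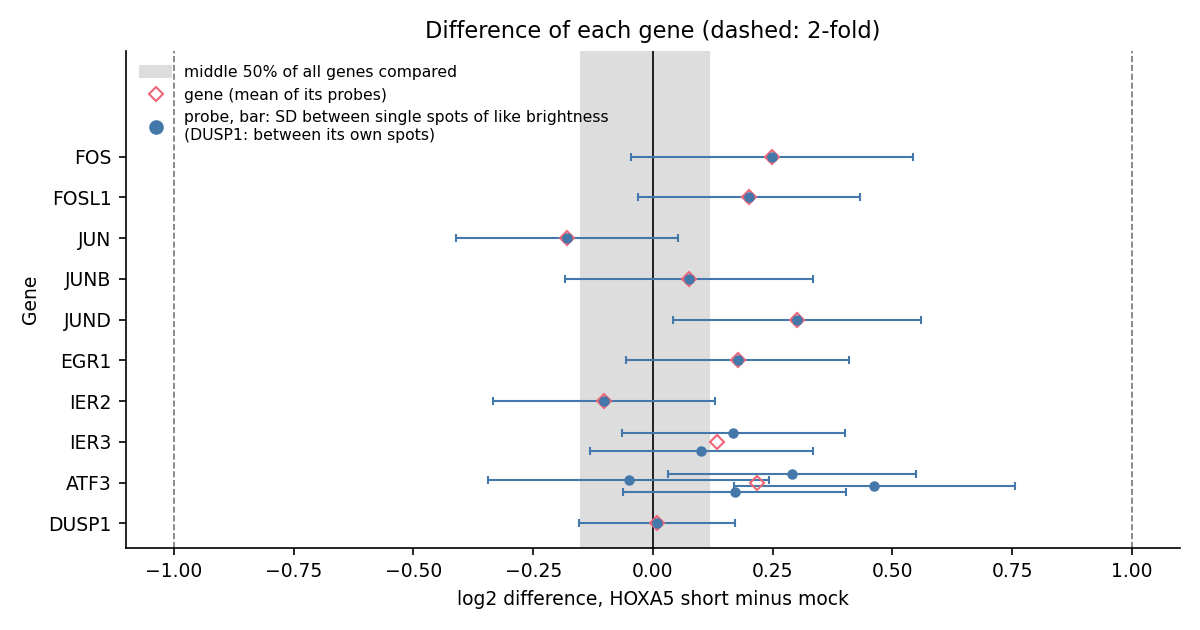
Log2 difference, HOXA5 short minus mock, of each probe of the 10 genes. Bars are the single-spot SD for probes of like brightness, flagged spots included, and for DUSP1 the SD between its own unflagged spots (0.16). Open diamonds are the gene means, the gray band is the middle 50% of all genes (-0.15 to 0.12) and dashed lines mark 2-fold. JUND and 2 ATF3 probes lay farther from 0 than their bar, and no probe reached 2-fold.

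EGR1 encodes a zinc finger factor whose promoter holds the CArG boxes shown above. Its probe (NM_001964, chromosome 5) gave 251 ± 25.1 in mock and 349.9 ± 35.0 in HOXA5 short. The log2 difference was 0.18 against a spot SD of 0.23, and the 30 neighbors of the spot had a median of 0.12. With the 75th percentile scaling, EGR1 was thus higher by less than the error of a spot. It was 0.28 with median scaling and 0.64 with spike-in scaling, both above that error.

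IER2 encodes a small nuclear protein induced by growth factors. Its probe (NM_004907, chromosome 19) gave 9238 ± 924 in mock and 10625 ± 1062 in HOXA5 short. The log2 difference was -0.10, and it became 0.36 with spike-in scaling, 0.01 with normexp and 0.02 after local subtraction. IER3 encodes a membrane-associated protein that modulates survival and ERK signaling, and had 2 probes of the same transcript (NM_003897, chromosome 6). The brighter gave 6396 ± 640 in mock and 8471 ± 847 in HOXA5 short, a log2 difference of 0.10. The other gave 1596 ± 160 in mock and 2212 ± 221 in HOXA5 short, a log2 difference of 0.17. The IER3 probes differed by 0.07, against a median range of 0.21 over 2208 genes with 2 passing probes. The mean of IER3 was 0.13, and it was 0.28 with normexp. With the 75th percentile scaling, neither IER gene differed by more than the spot SD of 0.23, which IER3 exceeded with normexp and both genes with spike-in scaling.

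ATF3 encodes a stress-induced CRE-binding factor that pairs with JUN proteins, and was measured by 4 probes on chromosome 1. The brightest, for NM_001040619, gave 1175 ± 117 in mock and 1632 ± 163 in HOXA5 short, a log2 difference of 0.17. A dim probe for the same accession gave 19.0 ± 2.47 in mock and 32.3 ± 3.67 in HOXA5 short, a log2 difference of 0.46 against a spot SD of 0.29. This was the widest difference of the 14 probes. A further dim probe for that accession gave 18.5 ± 2.63 in mock and 22.1 ± 2.97 in HOXA5 short, a log2 difference of -0.05. The probe for NM_001674 gave 53.2 ± 5.60 in mock and 80.3 ± 8.24 in HOXA5 short, a log2 difference of 0.29 against a spot SD of 0.26. The 4 probes thus disagreed in sign, and their mean was 0.22. Their range of 0.51 was wider than that of 60.8% of the 79 genes with 4 passing probes, whose median range was 0.44.

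DUSP1 encodes a phosphatase that removes the activating phosphates from ERK, JNK and p38 and is itself induced with the genes it ends. It was the only one of the 10 genes with repeated spots (NM_004417, chromosome 5). On the mock array, 9 spots not flagged as outliers ran from 47.7 through a median of 58.4 to 67.3, and the flagged spot gave 36.2. On the HOXA5 short array, the 10 spots ran from 63.6 through a median of 74.1 to 79.7. Before scaling, each of the 10 spots was brighter on the HOXA5 short array, and 8 of them were above every unflagged mock spot.

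After scaling, the 2 sets of DUSP1 spots overlapped. The mean log2 difference of the 9 unflagged spots was 0.02 ± 0.16 (SD over spots of 1 array pair), with 4 spots higher and 5 lower, from -0.20 to 0.30. Averaged within each array first, as for the other genes, the DUSP1 difference was 0.01, and it was -0.01 with quantile normalization or with the percentile taken over detected probes. With the flagged spot, whose own difference was 0.64, the mean was 0.08 and the SD 0.25. Of the 31 neighbors of the flagged spot, 3 differed 2-fold. The spots are technical repeats of the same RNA samples.

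**Figure D3:**
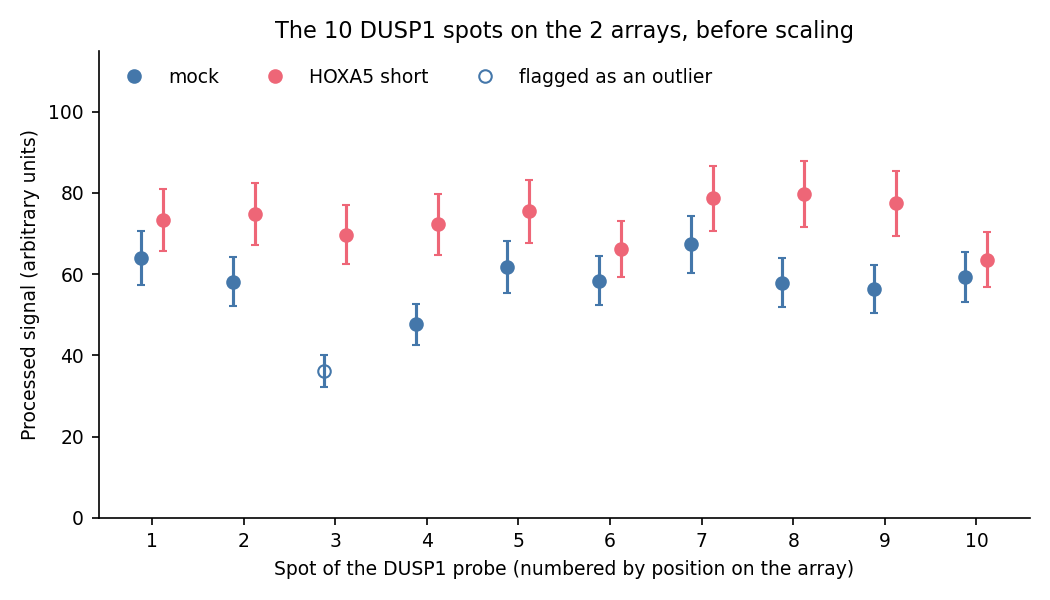
Processed signals of the 10 DUSP1 spots on the mock and HOXA5 short arrays, with the scanner software's error as bars and the flagged mock spot marked. Each spot was brighter on the HOXA5 short array before scaling, and after scaling the unflagged spots differed by 0.02 on average (log2).

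After scaling, 11 of the 14 probes were higher and 3 lower in HOXA5 short, where ATF3 counts with 4 probes and IER3 with 2. JUND and 2 ATF3 probes (0.46 and 0.29) exceeded the single-spot SD of their brightness, and the same 3 exceeded the error carried over from the scanner's spot errors. The shares over all probes were not computed for these counts. Each probe's spot had 19 to 37 well-measured neighbors within 4 rows and 4 columns, and for the 13 single-spot probes none of these differed 2-fold. Of the 13, 11 were higher than the median of their neighbors, where 51.5% of all genes compared were above 0 after the local median was subtracted. As the genes were chosen with these differences already known, nothing is read from these counts.

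The 5 wider lists of the pathway were written with earlier results of these data in view. Beside the counts of each list, 45.5% of all genes compared were higher. At 2-fold, 0.642% of all genes were higher and 0.258% lower. By more than the single-spot SD, 11.8% of all genes were higher and 12.5% lower. The other AP-1 and ATF dimer partners had 20 genes, of which 18 were compared, 9 higher and 9 lower. Of these dimer partners, 4 were higher and 3 lower by more than that SD. Their median log2 difference was -0.004 and was above 0 under 6 of 12 alternatives, median, cyclic loess and spike-in scaling among them. CREB1, encoding a CRE-binding factor, reached 2-fold (2.30-fold). Its single spot was dim, with 11.9 ± 2.37 in mock and 33.8 ± 3.998 in HOXA5 short. The lowest signal well above background on the mock array was 7.74. ATF6, a membrane-bound factor of the unfolded protein response, was the lowest at -0.91, from 382 ± 38.2 in mock to 249.98 ± 25.1 in HOXA5 short. Its spot lay in an uneven zone, where 9 of 22 neighbors differed 2-fold and the neighbor median was -0.42. The remaining FOS family genes were named after their values were seen. FOSB had a log2 difference of 0.12, with signals of 30.0 ± 3.41 in mock and 40.3 ± 4.39 in HOXA5 short. FOSL2 had a log2 difference of -0.70, with dim signals of 18.5 ± 2.48 in mock and 14.1 ± 2.33 in HOXA5 short. FOSL2 thus lay on the other side of 0 from FOS, FOSL1 and FOSB.

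Among 35 other immediate early genes, 29 were compared, and 19 were higher and 10 lower. None reached 2-fold, and the median was 0.09. By more than the single-spot SD, 6 were higher and 1 lower (11.8% and 12.5% of all genes). PLK3, a stress-responsive polo-like kinase, was the highest at 0.82, from 483 ± 48.3 in mock to 1054 ± 105 in HOXA5 short, with 2 of 23 neighbors differing 2-fold. NR4A3, an orphan nuclear receptor, was the lowest at -0.35, with 20.2 ± 2.58 in mock and 19.5 ± 2.63 in HOXA5 short.

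The 24 upstream factors and kinases were all compared, and 9 were higher and 15 lower. None reached 2-fold, and the median of -0.09 turned to 0.01 with median scaling and 0.38 with spike-in scaling. By more than the single-spot SD, 2 were higher and 3 lower (11.8% and 12.5% of all genes). ELK1, an ERK-phosphorylated partner of SRF, was the highest at 0.47, from 15.5 ± 2.31 in mock to 26.5 ± 3.23 in HOXA5 short. MAP2K2, the kinase MEK2, was the lowest at -0.53, from 533 ± 53.3 in mock to 455 ± 45.5 in HOXA5 short.

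Of 30 AP-1 target genes, 22 were compared, and 14 were higher and 8 lower. None reached 2-fold, and the median was 0.11. By more than the single-spot SD, 7 were higher and 1 lower (11.8% and 12.5% of all genes). AREG, a ligand of the EGF receptor, was the highest at 0.91, but its probes disagreed. One gave 1254 ± 125 in mock and 1574 ± 157 in HOXA5 short (log2 difference 0.02), and the other 75.3 ± 7.68 in mock and 323 ± 32.4 in HOXA5 short (1.80). S100A2, a calcium-binding protein, was the lowest at -0.29, with 962 ± 96.2 in mock and 972 ± 97.2 in HOXA5 short.

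Of 19 feedback regulators of the response, 18 were compared, and 12 were higher and 6 lower, with a median of 0.06. None reached 2-fold, and 3 were higher and 1 lower by more than the single-spot SD (11.8% and 12.5% of all genes). SPRY4, an inhibitor of receptor tyrosine kinase signaling, was the highest at 0.49, from 97.7 ± 9.998 in mock to 169.9 ± 17.2 in HOXA5 short. SPRED1, a membrane-bound inhibitor of RAS signaling to RAF, was the lowest at -0.49, with 55.8 ± 5.86 in mock and 49.2 ± 5.28 in HOXA5 short.

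**Figure D4:**
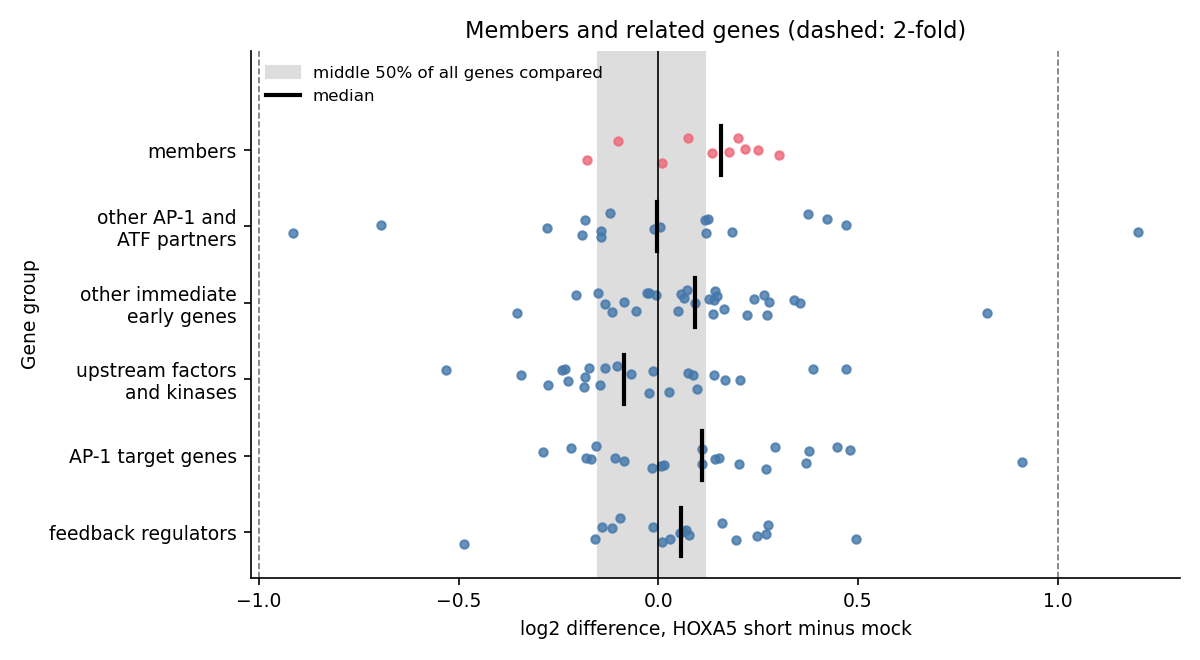
Log2 difference, HOXA5 short minus mock, of each compared gene of the 10 immediate early and AP-1 genes and of the 5 wider lists, with the median of each as a line. The medians ran from -0.09 for the upstream factors and kinases to 0.16 for the 10 genes, and CREB1 was the only gene past 2-fold.

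Under other ways of processing the arrays, none of the 10 genes reached 2-fold. The widest shift came from scaling to the 7 detected RNA spike-ins, which raised every gene by 0.47 and put all 10 above 0, from 0.29 for JUN to 0.77 for JUND. Under this scaling 96.6% of all genes were higher, so the signs of the small differences depend on the scaling. JUND was the highest of the 10 under every alternative except normexp, where FOSL1 reached 0.30, and local subtraction, where FOS reached 0.44.

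**Figure D5:**
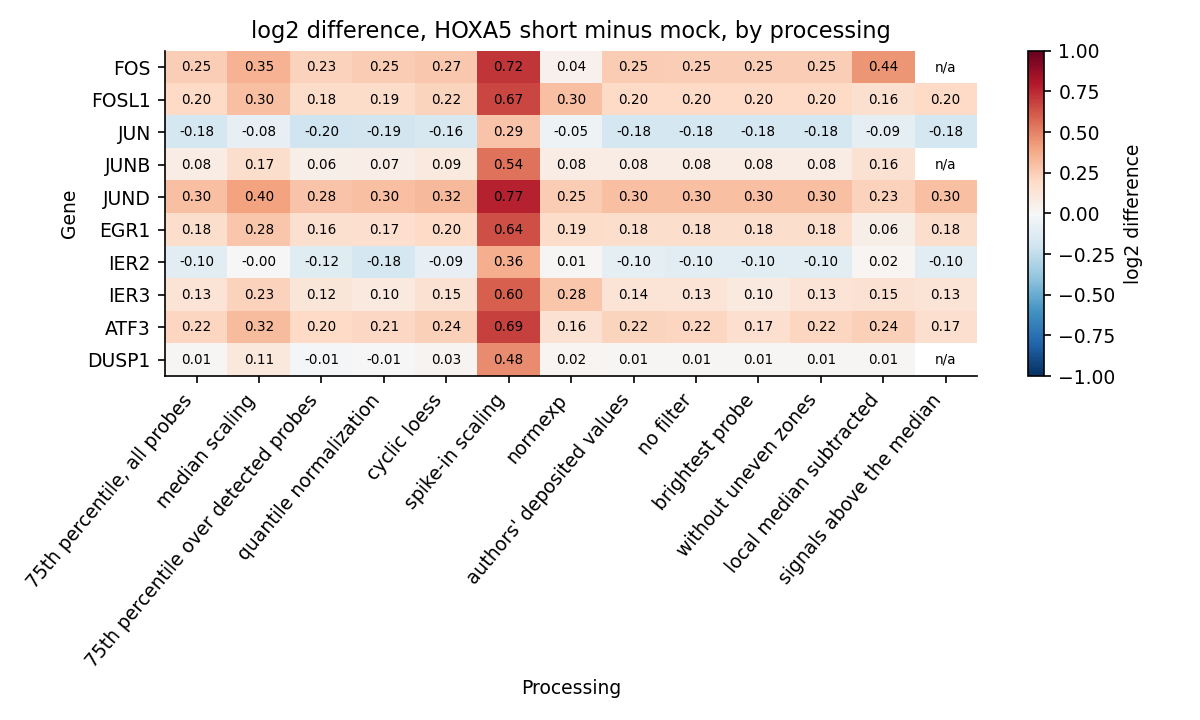
Log2 difference, HOXA5 short minus mock, of each of the 10 genes under each way of processing, as colors with the value printed. JUN, IER2 and DUSP1 changed sign in at least 1 column, and every gene was above 0 with spike-in scaling.

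HOXA5 itself, as the check of the labels, gave 39.4 ± 4.32 in mock and 346 ± 34.6 in HOXA5 short, a log2 difference of 2.83. Whether its probe (NM_019102) lies in sequence that both HOXA5 transcripts share was not checked. Of 11 epithelial markers, 7 were well above background on both arrays, whereas KRT20, VIL1, LGALS4 and GPA33 were not. Of 12 markers of other cell types, COL1A1 and DES were above background on both arrays and CD14 on the HOXA5 short array only, with a highest signal of 84.9. Of 62976 spots on each array, 58717 were not controls. In bulk RNA, less RNA per cell and fewer expressing cells cannot be told apart.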

How the data were processed

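Feature Extraction 11.5.1.1 read the spots, per the file headers, and the deposited scanner output gives each spot's intensity on a linear scale after background correction (the processed signal), with its error and flags. The authors also deposited log2 values of 19461 probes, centered on each probe's mean over both arrays, which were used as an alternative. The study's methods name no scaling.

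Processed signals were converted to log2, spots of a probe were averaged without flagged outlier spots, and each array's 75th percentile over non-control probes was subtracted. A probe passed when well above background on each array (17938 of 50599 probes), and a gene was the mean of its passing probes. Accessions were matched without versions to RefSeq records of GRCh38.p14, which named 15304 (85.3%) of the passing probes. The arrays were annotated on hg19, so gene coordinates are not given. Precision is limited by 1 array per group.

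Uneven zones were areas with at least 10 well-measured spots within 4 rows and 4 columns, over 10% of which differed 2-fold. Alternatives were median, detected-probe, quantile, cyclic loess and spike-in scaling, normexp (offset 50, on median foreground and local background), the authors' values, other filters, the brightest probe, 2 treatments of position, and thresholds of 1.5-fold and 3-fold. Genes named were the 10 genes, the highest and lowest gene of each list, genes past 2-fold, and HOXA5. FOSB and FOSL2 were added after their values were seen, and cell type markers are named from a list. The members and lists were chosen with earlier results of these data known. Scripts used Python 3.11.15, R 4.3.3 and limma 3.58.1 and were tested on simulated data.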

Additional observations from a re-analysis of the deposited data

How the results depend on the processing

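The count of the 10 genes past the threshold was 0 in each direction under all 14 alternatives. Thresholds of 1.5-fold and 3-fold were among these alternatives and changed nothing else in the processing. With spike-in scaling, 1.5-fold was exceeded by JUND (0.77), FOS (0.72), ATF3 (0.69), FOSL1 (0.67), EGR1 (0.64) and IER3 (0.60). JUN, JUNB, IER2 and DUSP1 stayed below 1.5-fold with that scaling. The share of all genes past 1.5-fold with spike-in scaling was not computed, so nothing is read from these genes passing it. Scaling to the spike-ins raised all genes by 0.47 (log2), since the 7 detected spike-ins had a median difference of -0.47 with a range from -0.66 to -0.04. The median of the 10 genes was then 0.62 in place of 0.16, that of the AP-1 and ATF dimer partners 0.46, other immediate early genes 0.56, upstream factors and kinases 0.38, AP-1 targets 0.58 and feedback regulators 0.52. Relative to the median of all genes, the 10 genes differed by 0.18 in both cases. Under the alternatives this ran from 0.09 with normexp to 0.26 with no filter. Of 117 values of single genes under alternatives, 107 moved by less than the single-spot SD and the other 10 were those with spike-in scaling. The median of AP-1 targets was -0.02 with signals above the median of detected probes only, a filter that left 7 of the 10 genes, without FOS, JUNB and DUSP1. HOXA5 ranged from 1.91 with normexp to 3.30 with spike-in scaling. The cause was not tested. No paired analysis was possible because each group had 1 array. Without replicate arrays, the spread between cultures is unknown. For genes with a single spot, a difference under the SD for its brightness lies within the error of that spot. This SD was 0.31 for signals under 15, 0.29 from 15 to 50, 0.26 from 50 to 200 and 0.23 above 200.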
